A study of Mus musculus with 4 samples.

Results

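The 9 genes described here encode the enzymes that make serine and pass its carbon through folate, and they were taken by name from the 24062 genes of the count table, in which all 9 were present. They are *Phgdh*, *Psat1* and *Psph* of serine synthesis, the serine hydroxymethyltransferase genes *Shmt1* and *Shmt2*, and the folate enzyme genes *Mthfd1*, *Mthfd1l*, *Mthfd2* and *Mthfd2l*. The counts came from bulk RNA-seq of E13.5 mouse retinas on a mixed C57BL/6 and 129 background, with 2 wild type libraries and 2 libraries labelled Nrf1-CKO, in which a floxed *Nrf1* allele on both chromosomes was deleted by Six3-Cre (Nrf1 f/f;Six3-Cre, called mutant below). *Nrf1* encodes nuclear respiratory factor 1, an activator of nuclear genes for mitochondria. Six3-Cre acts in retinal progenitor cells from the central retina outward, so cells that escaped deletion may remain, and each library was made from pooled retinas of several embryos. The comparison asks how the RNA of these enzymes changed when retinal progenitors lost Nrf1.

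Serine is built from an intermediate of glycolysis by 3 enzymes acting in turn, the dehydrogenase Phgdh, the aminotransferase Psat1 and the phosphatase Psph. Serine hydroxymethyltransferase then moves a carbon from serine to tetrahydrofolate and leaves glycine, in mitochondria with Shmt2 and in the cytosol with Shmt1. In mitochondria, Mthfd2 or its paralog Mthfd2l oxidizes the folate-bound carbon and Mthfd1l releases it as formate, which the cytosolic enzyme Mthfd1 attaches to folate again for the synthesis of purines and thymidylate. Dividing and embryonic tissues are known for high use of this route.

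Of the 9 genes, *Shmt2* was lower in mutant retinas and *Phgdh* and *Mthfd2* were higher, while the other 6 did not pass the thresholds. Calls required a 1.4-fold difference and an adjusted p of 0.2 or less in edgeR's quasi-likelihood test with Benjamini-Hochberg adjustment over 15762 tested genes, all 9 among them. Of the 9 genes, 1 was called lower (11.1%), against 8.04% of all tested genes, and 2 were called higher (22.2%), against 12.8%, so that 3 (33.3%) were called in either direction, against 20.9%. These shares rest on few genes and are near those of the whole table. At any fold, 3 genes (33.3%) had an adjusted p of at most 0.05, against 22.8% of the table, and 5 (55.6%) one of at most 0.2, against 39.9%. The genotypes did not overlap for 6 of the 9 genes (66.7%), against 62.5% of the table. Of these, 2 were lower in the mutant (31.6% of the table) and 4 higher (30.9% of the table). The median log2 fold change of the 9 genes was 0.04, and that of all tested genes was 0.0007. In bulk tissue, fewer cells of a type and less RNA per cell cannot be told apart.

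**Figure D1:**
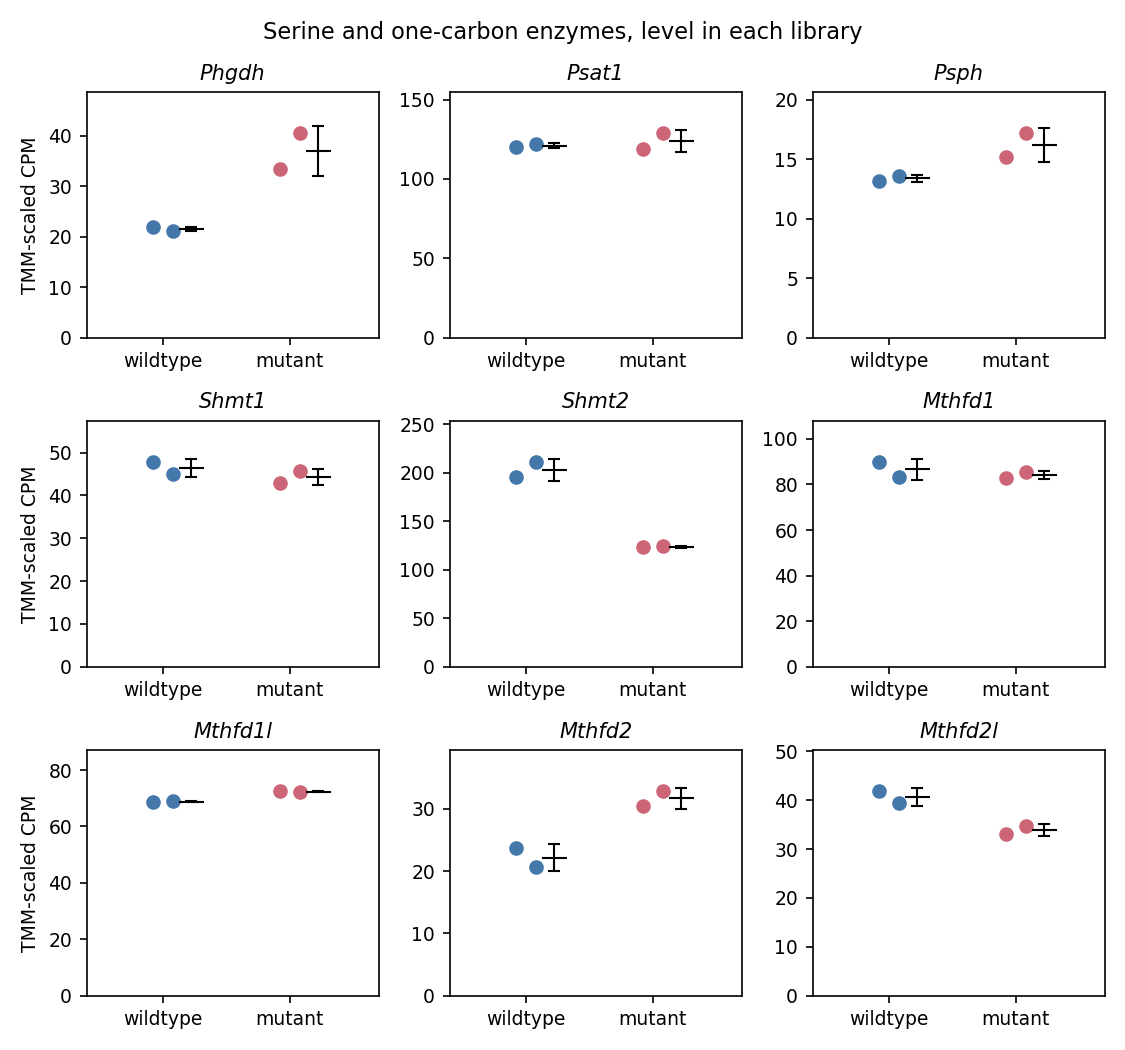
Level of each of the 9 genes in the 4 libraries, as CPM, read counts relative to the TMM-scaled library size (vertical axes from 0), for wildtype (blue) and mutant (red) retinas, with the mean and SD of 2 libraries as black bars. *Shmt2* fell from 195 and 211 to 123 and 124 CPM, and *Phgdh* rose from 21.9 and 21.2 to 33.5 and 40.6 CPM.

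Depth was similar in the 4 libraries, with 74577660 to 85933945 reads on genes. *Nrf1* itself was counted with 9052 and 7789 reads in wildtype and with 8594 and 8284 in mutant retinas (log2 fold change -0.03), but Cre removes a single exon, so a count over the whole gene could not check the genotype. Markers of other cells differed between the genotypes. The summed level of 8 lens genes was 141 to 383 CPM in wildtype and 3290 to 8150 in mutant libraries, and 8 of 8 were called higher. All 6 macrophage and microglia genes were higher, with sums of 57.2 to 63.8 and 191 to 229 CPM, and so were 5 of 5 tested pigment epithelium genes (161 to 223 and 409 to 434 CPM), although *Rpe65* had 4 reads in 1 library and none in the others. For endothelium, 4 of 5 genes were called higher and 1 lower (254 to 260 and 258 to 265 CPM). The lower gene, *Kdr*, made up most of these sums, with 200 and 211 CPM in wildtype and 144 and 137 in mutant libraries. The sums thus do not show the rise of the other 4. For periocular mesenchyme 5 of 6 were called higher (92.3 to 132 and 196 to 222 CPM). For erythroid cells 2 of 3 tested genes were called higher (18.9 to 23.0 and 26.6 to 28.8 CPM), with *Hba-a1* and *Hbb-bt* listed at 0 in every library. Of 8 markers of retinal ganglion cells (RGCs), 7 were called lower, with sums of 1440 to 1680 and 488 to 595 CPM. The 8 progenitor markers, all detected, had sums of 3220 to 3450 and 2760 to 2930 CPM, and 1 of them was called lower. The part of these cells in the changes of the enzyme genes was not tested. Mutant replicate 1 had sums of 8150 CPM for lens, 191 for macrophages and microglia and 409 for pigment epithelium, with 123 CPM of *Shmt2*, 33.5 of *Phgdh* and 30.5 of *Mthfd2*. Mutant replicate 2 had sums of 3290, 229 and 434 CPM, with 124, 40.6 and 32.9 CPM of the 3 enzyme genes. Other marker sums also differed between mutant replicates 1 and 2, in both directions, such as 2760 and 2930 CPM for progenitors and 595 and 488 for RGCs. With 1 library against 1, a link of the enzyme genes to any of these cells was not tested.

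Among the genes of serine synthesis, only *Phgdh* was called. *Phgdh*, the gene of the dehydrogenase that commits carbon to serine, lies on chromosome 3 of GRCm38 from 98313170 to 98339990. It was counted with 1916 and 1570 reads in wildtype and with 2782 and 3359 in mutant retinas. Each mutant value exceeded both wildtype values, although the mutant pair also differed. It rose from 21.5 ± 0.503 to 37.0 ± 5.03 CPM (SD, n = 2), or 0.78 on the log2 scale (SE 0.11), with an adjusted p of 0.00133 from edgeR. The increase exceeded the spread of the replicates, and leaving out any 1 library gave values from 0.64 to 0.92. The reads were 100 bases long, and 36.2% of the stretches of that length in its coding transcripts also occur in transcripts of other annotated genes. Reads without a unique place stayed out of the gene counts, so the value of *Phgdh* carries this uncertainty.

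*Psat1*, which encodes the aminotransferase of the next step, was counted with 10496 and 9020 reads in wildtype and with 9893 and 10658 in mutant retinas. The genotypes overlapped, with 120 and 122 CPM against 119 and 129. The log2 fold change was 0.04, with a 95% interval from -0.14 to 0.21, so a 1.4-fold change in either direction lay outside the interval. *Psph*, the gene of the phosphatase that releases serine, had 1155 and 1011 reads in wildtype and 1266 and 1419 in mutant libraries. Both mutant values were the higher ones, at 15.2 and 17.2 CPM against 13.2 and 13.6. Its log2 fold change of 0.27 (SE 0.12, edgeR adjusted p = 0.136) was smaller than 1.4-fold and was not called, and its 95% interval reached from 0.0058 to 0.54. Exons of *Cct6a* on the opposite strand cover 24.5% of the exon bases of *Psph*, and *Cct6a* had 25719 to 33277 reads per library, so the count of *Psph* is uncertain unless strand was used in counting, which is not given in the sources used here. *Psat1* lies on chromosome 19 from 15904678 to 15947337 and *Psph* on chromosome 5 from 129765558 to 129787449. The 3 serine synthesis genes had log2 fold changes of 0.78, 0.04 and 0.27 in the order of the pathway.

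Of the 2 serine hydroxymethyltransferase genes, *Shmt2* was called lower and *Shmt1* was not called. *Shmt2*, which encodes the mitochondrial enzyme and lies on chromosome 10 from 127517123 to 127522444, was counted with 17058 and 15656 reads in wildtype and with 10204 and 10231 in mutant retinas. Both mutant libraries were below both wildtype libraries, and the mutant pair was nearly identical. Mutant retinas kept 60.7% of the mean wildtype level, a log2 fold change of -0.72 (SE 0.08, edgeR adjusted p = 0.00034), and its 95% interval, from -0.90 to -0.54, lay wholly beyond a 1.4-fold decrease. Among all tested genes, this change stood at percentile 6.62 when ranked from the lowest log2 fold change. Exons of *Shmt2* overlap *Ndufa4l2* on the opposite strand by 32 bases, or 1.39% of its exon bases. *Ndufa4l2*, named here for this overlap, also fell, but had only 1412 and 1268 reads in wildtype and 438 and 370 in mutant libraries.

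*Shmt1*, which encodes the cytosolic enzyme and lies on chromosome 11 from 60788104 to 60811718, was counted with 4189 and 3329 reads in wildtype and with 3572 and 3771 in mutant retinas. The genotypes overlapped, with 47.8 and 44.9 CPM against 43.0 and 45.6. The log2 fold change was -0.07, with a 95% interval from -0.25 to 0.12. Exons of *Smcr8* on the opposite strand cover 6.44% of its exon bases. Within each library, where scaling plays no part, there were 4.07 and 4.70 reads of *Shmt2* for each read of *Shmt1* in wildtype, and 2.86 and 2.71 in mutant retinas. The log2 ratio was lower by 0.65 in the mutant (difference -0.65, exact permutation test over libraries, two-sided p = 0.333). With 2 libraries against 2, 0.333 is the smallest p this test can give, and the adjusted p over the 4 ratios examined was also 0.333. A test of this size gives that p whenever the genotypes do not overlap, as here.

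Since the deleted gene encodes a transcription factor, the promoters of the 9 genes were read, and those of the 3 called genes are shown. Windows of 300 bases, from 250 before to 50 after the RefSeq start of transcription (GRCm38.p6), were searched on both strands for the Nrf1 consensus motif, for the motif TGATGNAA of the C/EBP-ATF response element (CARE), which ATF4 binds, and for the E-box CACGTG, which Myc proteins bind. All 9 genes had a window, and *Psat1* had 2. *Shmt2* was the only one of the 9 with the Nrf1 motif, which begins at position -19 from the start and reads GCGCATGCGC (the consensus takes any base in place of the T), and neither of the other motifs was found in any of the 9. Of 32851 promoter windows of all genes, 4.60% held the Nrf1 motif, 3.97% the CARE motif and 7.15% the E-box. The *Shmt2* window, chr10:127522395-127522694 on the minus strand, is shown first with the Nrf1 motif in capitals. The windows of *Phgdh*, chr3:98339920-98340219, and *Mthfd2*, chr6:83317555-83317854, both on the minus strand, follow as those of the 2 genes called higher, and they hold none of the 3 motifs. Each is written 5′ to 3′ along the gene.
Shmt2: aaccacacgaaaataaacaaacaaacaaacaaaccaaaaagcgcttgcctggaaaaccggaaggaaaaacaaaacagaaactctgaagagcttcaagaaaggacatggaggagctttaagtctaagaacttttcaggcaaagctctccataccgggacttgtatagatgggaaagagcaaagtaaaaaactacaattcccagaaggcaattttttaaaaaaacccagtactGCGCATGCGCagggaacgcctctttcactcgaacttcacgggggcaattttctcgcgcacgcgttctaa
Phgdh: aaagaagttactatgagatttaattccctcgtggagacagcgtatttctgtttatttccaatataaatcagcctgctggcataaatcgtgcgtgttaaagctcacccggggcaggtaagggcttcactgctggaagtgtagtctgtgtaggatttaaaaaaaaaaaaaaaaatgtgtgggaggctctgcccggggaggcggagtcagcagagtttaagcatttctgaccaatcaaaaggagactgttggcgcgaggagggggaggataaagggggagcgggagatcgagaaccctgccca
Mthfd2: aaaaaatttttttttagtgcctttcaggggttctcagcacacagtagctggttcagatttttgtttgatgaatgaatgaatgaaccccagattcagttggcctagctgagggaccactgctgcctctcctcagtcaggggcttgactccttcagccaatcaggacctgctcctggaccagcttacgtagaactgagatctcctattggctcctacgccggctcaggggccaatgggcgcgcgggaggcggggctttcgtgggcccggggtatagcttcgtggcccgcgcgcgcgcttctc

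A match of letters is a description and not a bound site, and its absence says only that these letters are not in this window. Of 1177 tested genes with the Nrf1 motif in a promoter window, 135 (11.5%) were called lower and 22 (1.87%) higher (median -0.13 on the log2 scale). Of 10425 tested genes whose windows lack it, 754 (7.23%) were called lower and 1433 (13.7%) higher (median 0.02). *Shmt2* thus shares its motif with many genes of which most were not called.

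Of the 3 mitochondrial folate genes, *Mthfd2* was called higher, and *Mthfd2l* and *Mthfd1l* were not called. *Mthfd2*, the gene of the mitochondrial dehydrogenase and cyclohydrolase known from embryonic and dividing cells, lies on chromosome 6 from 83305691 to 83325908. It was counted with 2075 and 1531 reads in wildtype and with 2531 and 2726 in mutant retinas. The higher pair was the mutant one, without overlap. It rose from 22.2 ± 2.16 to 31.7 ± 1.76 CPM (SD, n = 2), or 0.52 on the log2 scale (SE 0.11), with an adjusted p of 0.00806 from edgeR. The 95% interval reached from 0.28 to 0.76, across the 1.4-fold limit of 0.49 on the log2 scale, so the call rests on a fold close to the threshold. Without wildtype replicate 2 the value was 0.42 and without mutant replicate 2 it was 0.46, and in both cases *Mthfd2* was no longer called.

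*Mthfd2l*, which encodes the paralog of Mthfd2 and lies on chromosome 5 from 90931117 to 91021368, was counted with 3673 and 2926 reads in wildtype and with 2749 and 2879 in mutant retinas. Scaled for depth, both mutant libraries, at 33.1 and 34.8 CPM, were below both wildtype libraries, at 41.9 and 39.4. Its log2 fold change of -0.26 (SE 0.09, edgeR adjusted p = 0.0574) was smaller than 1.4-fold, and it was not called. The reads of *Mthfd2* for each read of *Mthfd2l* were 0.565 and 0.523 in wildtype and 0.921 and 0.947 in mutant retinas. This log2 ratio was higher by 0.78 in the mutant, with no overlap of the genotypes (exact permutation test, two-sided p = 0.333, the smallest possible). The paralogs thus had nearly equal read numbers in mutant retinas, whereas *Mthfd2l* had more in wildtype retinas.

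*Mthfd1l*, the gene of the mitochondrial enzyme that releases formate, was counted with 6024 and 5110 reads in wildtype and with 6030 and 5970 in mutant retinas. Its replicates were very close, at 68.8 and 68.9 CPM in wildtype and 72.6 and 72.2 in mutant libraries, so the genotypes did not overlap, but the log2 fold change was only 0.07 (adjusted p = 0.539 from edgeR) with a 95% interval from -0.09 to 0.24. *Mthfd1*, the gene of the cytosolic enzyme with 3 activities, had 7870 and 6179 reads in wildtype and 6876 and 7059 in mutant libraries. Its levels overlapped, with 89.9 and 83.3 CPM against 82.8 and 85.3, and its log2 fold change of -0.04 had a 95% interval from -0.22 to 0.13. *Mthfd1l* lies on chromosome 10 from 3973118 to 4167081 and *Mthfd1* on chromosome 12 from 76255298 to 76319803. The intervals of both genes lay within a 1.4-fold change. The log2 ratio of *Mthfd1l* to *Mthfd1* was higher by 0.11 and that of *Mthfd2* to *Mthfd1* by 0.56 in the mutant, and neither overlapped between the genotypes (exact permutation p = 0.333 for each). The difference of 0.11 was 0.059 without wildtype replicate 1 and 0.17 without wildtype replicate 2.

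**Figure D2:**
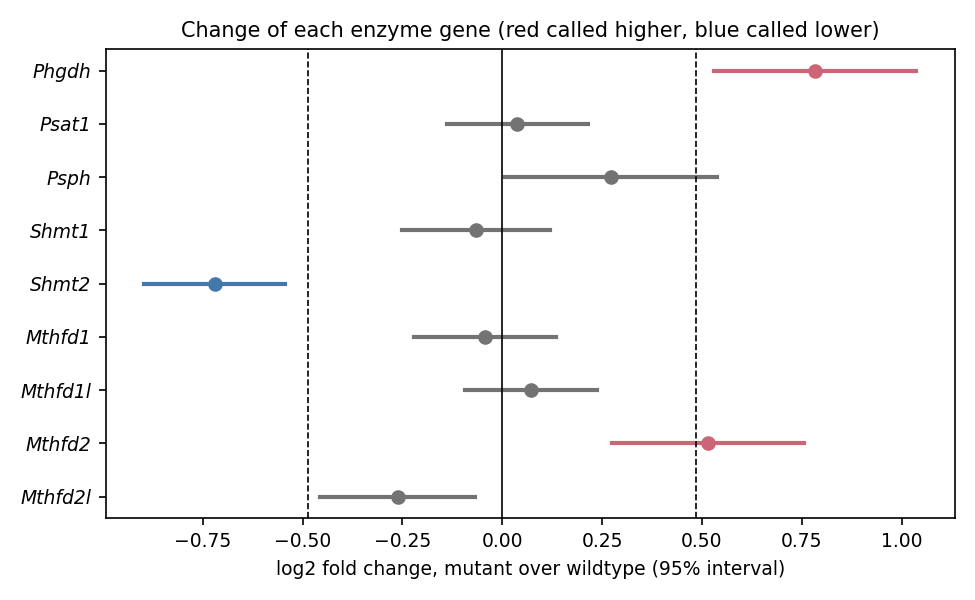
Log2 fold change of each gene, mutant over wildtype (horizontal axis), with its 95% interval from edgeR as a line. The dashed lines mark a 1.4-fold change. The interval of *Shmt2* lies wholly below the left line and that of *Phgdh*, from 0.53 to 1.04, wholly above the right line, while the interval of *Mthfd2* crosses it.

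**Figure D3:**
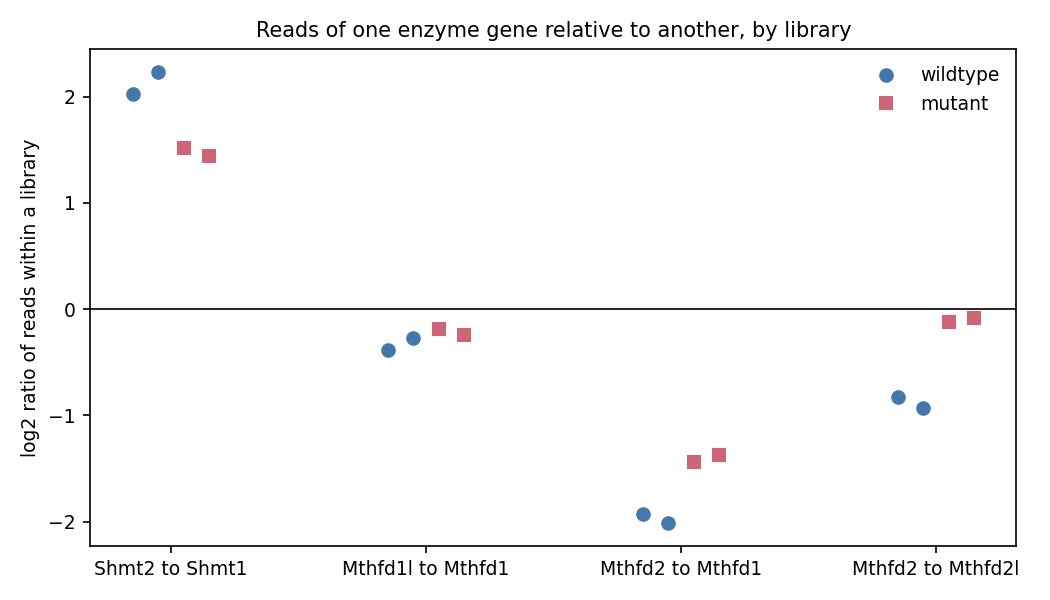
Log2 ratio of the reads of 2 enzyme genes within each library (vertical axis), for wildtype (blue circles) and mutant (red squares) retinas. The ratio of *Shmt2* to *Shmt1* falls from 2.03 and 2.23 to 1.51 and 1.44, and that of *Mthfd2* to *Mthfd2l* rises from -0.82 and -0.93 to -0.12 and -0.08.

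To compare levels between genes, reads were also divided by the length of the exons in coding transcripts, which gives RPKM, the CPM per kilobase of exon. *Shmt2* had the highest level of the 9 in both genotypes, at 84.5 and 91.6 RPKM in the wildtype libraries and at 53.3 and 53.6 in the mutant ones. In wildtype it was followed by *Psat1* at 40.4, *Mthfd1* at 25.5, *Shmt1* at 16.2, *Mthfd1l* at 16.1, *Mthfd2l* at 15.1, *Phgdh* at 11.1, *Mthfd2* at 9.73 and *Psph* at 7.27 RPKM. Of the neighbours in this order, only *Shmt1* and *Mthfd1l* had overlapping libraries. In mutant retinas *Phgdh*, at 19.0 ± 2.58 RPKM, stood in place 4 instead of place 7, and *Mthfd2*, at 13.9 ± 0.77, stood above *Mthfd2l*, at 12.6 ± 0.448. No neighbours overlapped in the mutant order, although the lower library of *Phgdh*, at 17.2, was close to *Mthfd1l* at 17.0 and 16.9 RPKM. The place of *Phgdh* in both orders holds only for reads with a unique place. Of its stretches, 36.2% are shared with other genes, against 0 for *Mthfd1l*, and this was not allowed for. For *Shmt1* 2.88% are shared, with *Smcr8* alone, whose exons overlap it on the opposite strand. The range from the highest to the lowest gene was narrower in the mutant, with *Psph* last in both genotypes. The level of *Psph* carries the uncertainty given above, since exons of *Cct6a* cover 24.5% of its exon bases.

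The wider network was read from 6 lists with 87 genes, of which 86 were in the table and 80 were tested. In these lists 1 gene was called lower (1.25% of 80) and 18 higher (22.5%), against 8.04% and 12.8% of all tested genes, and the median log2 fold change was -0.0032. Of the 18 genes, 11 belong to the list of the ATF4 pathway and Myc genes, and 7 to the other 5 lists. Those 7 had at most 1490 reads in any library.

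**Figure D4:**
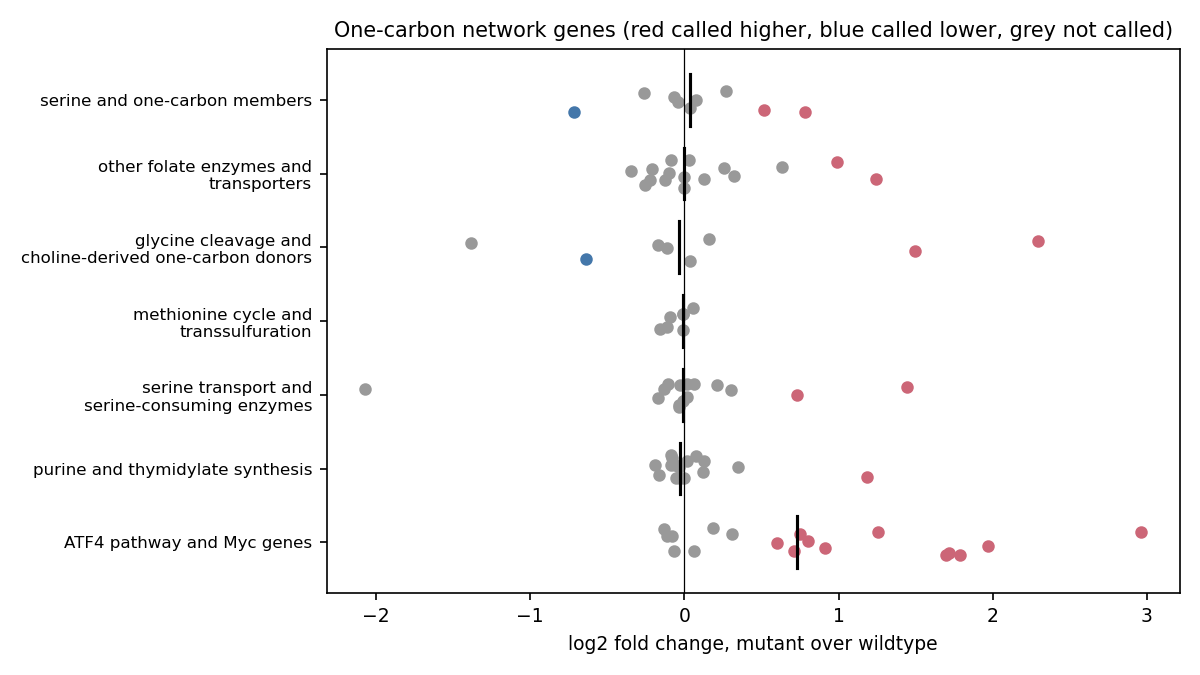
Log2 fold change, mutant over wildtype (horizontal axis), of each tested gene of the 9 enzymes and of the 6 network lists (rows). Each point is a gene and black bars are medians. The medians of the lists lie between -0.04 and -0.0032 except for the ATF4 pathway and Myc genes, at 0.73, and the 9 enzymes, at 0.04.

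Folate enzymes and transporters outside the 9 centred on a log2 fold change of -0.0032 (median), and 2 of 16 tested genes were called higher and none lower (2 were lower at an unadjusted p under 0.05). The folate receptor gene *Folr1* rose from 727 and 423 reads in wildtype to 1260 and 1490 in mutant libraries, or 1.24 on the log2 scale (SE 0.19), with an adjusted p of 0.00174 from edgeR. *Folr2*, a folate receptor gene of macrophages, had 57 and 28 reads in wildtype and 80 and 90 in mutant libraries, with a log2 fold change of 0.99 (adjusted p = 0.176 from edgeR). This call was kept in 8 of 15 alternatives and was lost without wildtype replicate 2, without mutant replicate 1 and without mutant replicate 2. The pigment epithelium and macrophage markers given above were higher in the same libraries, and their part in these values was not tested. *Tyms*, the thymidylate synthase gene, had a log2 fold change of -0.0032, and the formyltetrahydrofolate dehydrogenase genes *Aldh1l1* and *Aldh1l2* had 0.03 and -0.13, and none of them was called. *Slc25a32*, the mitochondrial folate carrier gene, had 638 and 535 reads in wildtype and 706 and 607 in mutant libraries, a log2 fold change of 0.13 that was not called. *Ftcd* was listed at 0 in every library.

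In the list of glycine cleavage and choline-derived donors, 1 of 8 tested genes was called lower and 2 higher, and the median was -0.04. *Gldc*, the decarboxylase gene of the glycine cleavage system in mitochondria, was by far the most abundant of its list with 32092 and 26931 reads in wildtype and 25723 and 27873 in mutant libraries. Its log2 fold change of -0.17 (adjusted p = 0.164 from edgeR) was smaller than 1.4-fold. *Sardh*, whose mitochondrial enzyme takes a carbon from sarcosine, rose from 118 and 160 to 407 and 409 reads, or 1.49 on the log2 scale (SE 0.27), with an adjusted p of 0.00436 from edgeR. *Pipox*, whose peroxisomal enzyme also oxidizes sarcosine, went the other way, from 556 and 538 to 371 and 354 reads, with a log2 fold change of -0.64 (adjusted p = 0.0271 from edgeR). *Chdh*, the choline dehydrogenase gene, had 4 and 10 reads in wildtype and 54 and 19 in mutant libraries, too few to fix the size of its change (adjusted p = 0.0935 from edgeR), and its call was lost without wildtype replicate 1 and without mutant replicate 1.

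None of the 7 tested genes of the methionine cycle and transsulfuration was called by edgeR or in any alternative, and none had an unadjusted p under 0.05. Their log2 fold changes lay between -0.16 and 0.05, and *Mat1a* was listed at 0. Of 15 tested genes that transport or consume serine, 2 were called higher, with 186 and 169 reads of *Sdsl* in wildtype and 322 and 283 in mutant libraries and 8 to 32 reads of *Slc38a5*. The call of *Slc38a5* rests on an adjusted p of 0.197 from edgeR and was kept in 3 of 15 alternatives. None was called lower, and none had an unadjusted p under 0.05 in that direction. *Slc7a10* had 25 and 17 reads in wildtype and 10 and 0 in mutant libraries and was not called (adjusted p = 0.235 from edgeR), but was called lower by the exact test of edgeR, with a replicate block and without mutant replicate 1. *Sds* was listed at 0. In the synthesis of purines and thymidylate, which uses the folate-bound carbon, 15 of 16 tested genes were not called, with log2 fold changes between -0.19 and 0.35 and a median over all 16 of -0.03. The exception was *Adssl1*, the adenylosuccinate synthase gene of muscle, at 127 and 88 reads in wildtype and 217 and 281 in mutant libraries. None of the 16 was called lower, and 1 had an unadjusted p under 0.05 in that direction.

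ATF4, the transcription factor of the integrated stress response, and Myc are known to activate serine synthesis and mitochondrial folate genes, so their genes and other ATF4 targets were read beside the 9 enzymes. Of these 18 genes, 11 were called higher and none lower, against 12.8% and 8.04% of all tested genes. None was lower at an unadjusted p under 0.05, and the median of their log2 fold changes was 0.73. The largest changes were those of *Atf3*, *Chac1*, *Trib3*, *Slc7a11* and *Sesn2*, whose mean mutant levels were 776%, 391%, 345%, 329% and 324% of wildtype. The pigment epithelium, macrophage and lens markers given above were higher in the same libraries, and their part in the values of this list was not tested. *Atf3*, a stress-induced transcription factor gene, had 61 and 77 reads in wildtype and 428 and 688 in mutant libraries (adjusted p = 0.000318 from edgeR). *Sesn2*, a stress-induced sestrin gene, had 987 and 967 reads in wildtype and 2752 and 3770 in mutant libraries (adjusted p = 0.000209 from edgeR). *Atf4* itself had 14646 and 12333 reads in wildtype and 14921 and 16534 in mutant libraries, a log2 fold change of 0.19 (adjusted p = 0.141 from edgeR) that was not called. *Myc* rose from 1721 and 1273 to 2536 and 2780 reads, or 0.80 on the log2 scale (SE 0.11), with an adjusted p of 0.00107 from edgeR, while *Mycn*, its abundant relative in progenitors, had -0.08. Among the 16 genes of this list with a promoter window, 6 held the CARE motif. Of these, *Atf3*, *Chac1*, *Trib3* and *Slc7a11* were called higher, and *Asns* (log2 fold change 0.31) and *Pycr1* (-0.11) were not called. Over the whole list 11 of 18 genes were called higher, and *Sesn2* and *Myc*, which are not among the 6, were among them. A link of the motif to the changes was not tested. Of the enzyme genes, *Phgdh* and *Mthfd2* were called higher like most genes of this list, whereas *Psat1* was not called and *Shmt2* was called lower. Any genes called higher rise in the same libraries in a comparison of wildtype with mutant. The part of ATF4 or Myc in the changes of the enzyme genes was not tested.

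Cell cycle genes were read because dividing cells use folate-bound carbon for nucleotides. Of 11 genes, *Ccnd1*, the cyclin D1 gene, was called lower, with 222561 and 205793 reads in wildtype and 115483 and 124272 in mutant libraries and a log2 fold change of -0.88 (edgeR adjusted p = 0.000229). The other 10 were not called and had log2 fold changes between -0.25 and 0.34, with a median over the 11 of -0.08.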

How the data were processed

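RNA-seq was performed on 2 wildtype and 2 mutant libraries of E13.5 retinas, and the titles of the samples gave group and replicate. The tables name their columns Mut1, Mut2, Ctrl1 and Ctrl2, but hold extra blank names in the header, and the names were read in order without the blanks. The authors aligned reads to mm10 with Tophat (TopHat2 2.7.2 per the labels), counted them per gene with HTSeq and deposited whole-number read counts. The release of the gene annotation and the use of strand are not given in the sources used here. The authors also deposited normalized log2 values, for which no method is given (the submitters' processing notes name DESeq and limma with no role). The study tested genes with Cuffdiff on aligned reads, which were not used here. HTSeq's summary entries, 74.0% to 75.0% of each library and mostly alignments that were not unique (54.6% to 58.0%), stayed out of all totals.

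Counts were filtered with filterByExpr at a minimum count of 10, scaled with TMM factors (0.992 to 1.02) and tested for genotype alone by quasi-likelihood in edgeR 4.0.16 (R 4.3.3). Standard errors (SE) were derived from the F statistics. Alternatives used DESeq2 1.42.0, limma 3.58.1 on the deposited log2 values, other scalings, filters and thresholds, edgeR's exact test and glmTreat, a replicate block, and each library left out in turn. The test was checked on simulated counts. Replicates differed by more than sampling noise (chi-square per gene 47.6 and 59.1), but the sources do not say whether all animals of the pools were separate, so p-values measure the spread between these libraries. Intervals do not cover PCR copies. Coordinates, exon lengths and shared stretches come from GENCODE M21 (GRCm38, the build named mm10), and promoters from RefSeq (GRCm38.p6).

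The 9 genes, the lists and the marker genes were chosen with earlier results of these data known. The text names the 9 genes, at most 5 called genes of a list in each direction by size of change, and a fixed set of regulators and folate genes, some of which are not reported here. Genes outside this rule are named for an overlap, a motif, a count of 0, a large part of a sum or a change of call. They were chosen after their values were seen.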

Additional observations from a re-analysis of the deposited data

How the results depend on the processing

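*Shmt2* was called lower in all 15 alternatives, with log2 fold changes from -0.77 to -0.66, and *Phgdh* was called higher in all of them, from 0.64 to 0.92. The number of the 9 genes called higher was 2, and it was 1 with glmTreat against a 1.4-fold change and 1 on the deposited normalized values, where *Mthfd2* had a log2 fold change of 0.42, and between 1 and 2 with a library left out. For *Mthfd2* the values lay between 0.42 and 0.62 over the alternatives, around the 1.4-fold limit. *Mthfd1* moved between -0.093 and 0.016 and *Psat1* between -0.022 and 0.094 with each library left out, so both changed sign within their errors. The 1 network gene called lower was *Pipox*. The number was 2 with the exact test, 0 with glmTreat (also 0 at an unadjusted p under 0.05), 0 on the deposited normalized values by limma (5 were lower there at an unadjusted p under 0.05), and between 1 and 2 with a library left out, the higher number without mutant replicate 1. Wherever it was 2, the other gene was *Slc7a10*. The number of network genes called higher was 18, and 11 on the deposited normalized values, all 11 among the 18, and it lay between 14 and 17 with a library left out. The other alternatives gave 12 to 19. The differences of the 4 log2 ratios kept their sign in the 5 alternatives run for them (the deposited normalized values and each library left out), and that of *Shmt2* to *Shmt1* lay between -0.76 and -0.55. A fit that leaves out a library has 1 sample in a group, which is assumed to vary like the others.

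With the replicate number as a block, the same 3 of the 9 genes were called, and the network counts were 2 lower and 17 higher. Whether the numbers pair the samples is not given in the sources used here. The deviations of same-numbered libraries from their group means had a correlation of -0.0025 over tested genes. This shows no shared shift, but it cannot tell whether these libraries were prepared together. Changes smaller than 1.4-fold were not called whatever their p. The cause of these shifts was not tested.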
